A study of Mus musculus with 14 samples.

Results

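The comparison of Lipofectamine with heat shock set 2 treatments of one cell line directly against each other, without control cells in the contrast. It holds 6 of the 14 arrays of the series, all of B16-F10 cells, a pigmented mouse melanoma line of the C57BL/6J strain. The 3 Lipofectamine samples came from cells kept for 3 h with Lipofectamine 2000, a cationic liposome reagent used to carry DNA into cells, in Opti-MEM medium and then for 30 min in RPMI with serum. No plasmid was added. The 3 heat shock samples came from cells held for 1 h at 42.5°C and then for 30 min at 37°C. All cells were grown in RPMI with serum beforehand, and the labels call the samples of a group biological replicates without saying which cultures they came from. Liposomes, change of medium, length of treatment and temperature differ together between the groups and cannot be told apart. Levels in the 5 untreated control samples are given beside the results as a landmark only.

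Heat shock is known for the rapid transcription of chaperone genes by heat shock factor HSF1, which binds inverted repeats called heat shock elements. Chaperones of the HSP70, HSP110, small heat shock protein and DnaJ families hold or refold proteins that have lost their shape, and BAG3 links them to autophagy. Immediate early genes such as Fos and Egr1 are switched on within minutes by growth factor and stress kinases, while NRF2 switches on genes that make glutathione and thioredoxin in response to oxidants and electrophiles. The direct contrast asks which of these programmes separated the cells that met liposomes from the cells that met heat.

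RNA was read on Affymetrix mouse arrays, and 22626 probesets were tested on the log2 scale. A probeset is a set of probes that reports a transcript, or at times several. The values are the authors' RMA signals, background-corrected and normalized between arrays. Groups were compared with limma, which steadies the variance of each probeset with that of all others, and p-values were adjusted over all probesets by Benjamini-Hochberg. Array medians lay between 7.03 and 7.12. The Lipofectamine arrays were less alike (r of 0.9878 to 0.9955 across probesets) than the heat shock arrays (0.9954 to 0.9971). Lipofectamine samples 2 and 3 deviated from their group mean in opposite directions (r = -0.894 across probesets, which are not independent). Deviations from a mean of 3 arrays cancel each other at every probeset, which in part forces a negative r. Leaving out Lipofectamine sample 3 raised the number of probesets that passed to 5707, and leaving out sample 1 lowered it to 1562. A call is therefore described below as kept when it held its direction and passed with each of the 6 arrays left out and also when the control arrays were in the fit. Control samples 1 and 3 stood apart together from the other 3, by 1 or more on the log2 scale upwards at 201 probesets and downwards at 38, and they widen the control ranges of the stress genes named below. With these 2 samples left out of the fit that holds the controls, a setting chosen after seeing the data, the calls kept numbered 1264 (1045 higher after Lipofectamine and 219 higher after heat shock), against 923 with all 5 control samples.

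After Lipofectamine, 2043 probesets were higher than after heat shock (9.03% of those tested) and 857 were lower (3.79%), at an adjusted p under 0.05. The share of calls that were higher after Lipofectamine was 70.4%, and 58.5% (2168 against 1538 probesets) when the 6 arrays were quantile normalized again. The arrays of both groups did not overlap for 30.4% of all probesets and for 2869 of the 2900 that passed. Of these calls 923 were kept, 774 of them higher after Lipofectamine and 149 higher after heat shock. The median difference, Lipofectamine minus heat shock, was -0.05 over all probesets. Differences of 2 or more on the log2 scale were few, with 8 probesets higher after Lipofectamine and 14 higher after heat shock. Differences between 1 and 2 were by contrast mostly on the Lipofectamine side, with 216 probesets against 27 on the heat shock side. The plot of difference against signal shows a broad band of moderately higher values after Lipofectamine than after heat shock. It also shows a sparse set of points, mostly chaperone genes, far below 0.

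**Figure D1:**
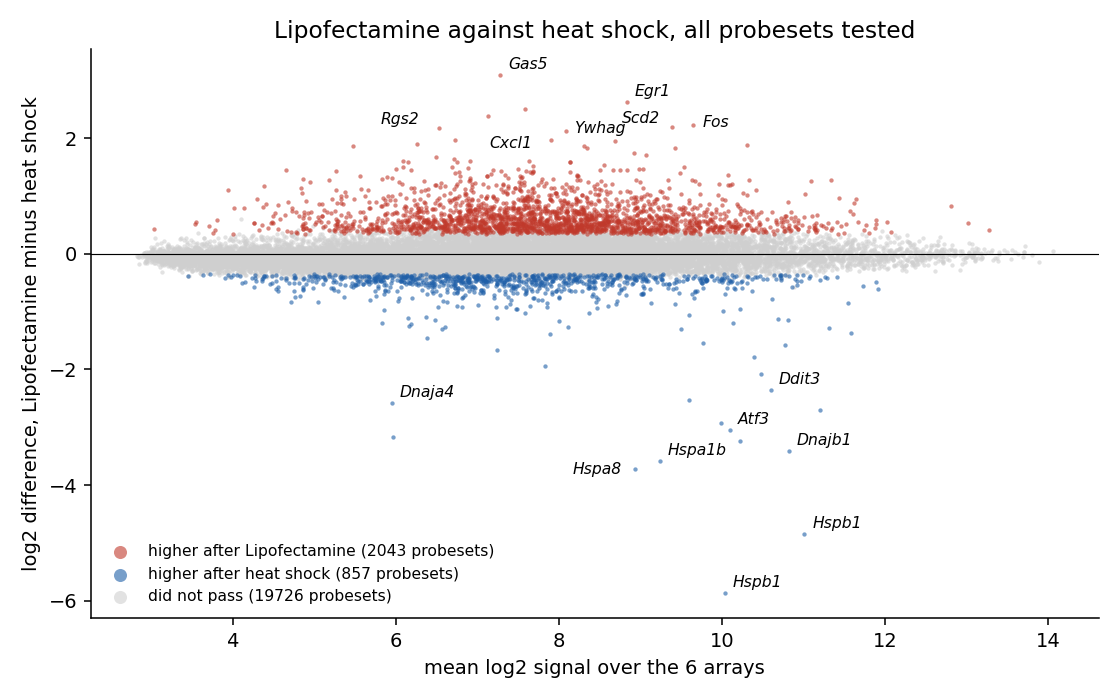
Difference between the groups against mean signal for all 22626 probesets tested (x axis: mean log2 signal of the 6 arrays; y axis: log2 difference, Lipofectamine minus heat shock; each point is 1 probeset). Red points passed as higher after Lipofectamine (2043), blue points as higher after heat shock (857), and the lowest points are the 2 probesets of Hspb1 at -5.86 and -4.85.

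At 1 probeset a gene, the one with the highest signal, 789 of 12393 genes were higher after Lipofectamine (6.37%) and 442 were higher after heat shock (3.57%). Gene lists are described below by how many of their measured genes passed, and these percentages are the background against which each count is read.

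The chaperone genes showed the largest separation. Hspb1, a small heat shock protein that keeps unfolded proteins soluble, was at 7.12, 7.33 and 6.88 after Lipofectamine, against 12.68, 12.91 and 13.32 after heat shock. The groups did not come near each other, and the Lipofectamine samples lay just above the control range of 6.15 to 6.86. The log2 difference of -5.86 (SE 0.16, adjusted p = 1.52e-12) is a 58.1-fold gap. The brighter probeset of Hspb1 gave -4.85, with 8.40, 8.61 and 8.75 after Lipofectamine, against 13.33, 13.31 and 13.66 after heat shock, and there the lowest Lipofectamine sample lay within the control range of 7.68 to 8.49. Hspa1b, the inducible HSP70 gene of the cytosol, stood at 7.48, 7.50 and 7.38 after Lipofectamine, against 10.96, 11.08 and 11.07 after heat shock. Every Lipofectamine sample was far below every heat shock sample and still above the 5 controls, which ranged from 4.30 to 5.44. Its 3 probesets differed by -3.58, -3.23 and -2.93, and all 3 calls were kept. Hspa1a, the neighbouring inducible HSP70 gene, was at 4.26, 4.39 and 4.49 after Lipofectamine, against 7.78, 7.19 and 7.65 after heat shock. Its Lipofectamine samples reached the control range of 4.13 to 4.44 while those of Hspa1b did not. Hspa1a and Hspa1b encode nearly the same mRNA, so that probes may be shared between them.

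Dnajb1, a J-domain partner that feeds clients to HSP70, had 8.97, 9.39 and 9.00 after Lipofectamine, against 12.27, 12.69 and 12.64 after heat shock. Its difference was -3.41 (SE 0.14), and Lipofectamine samples 1 and 3 lay within the control range of 8.39 to 9.24. At the brighter probeset of Dnajb1 all 3 Lipofectamine samples (9.86, 9.92 and 9.76) lay above the control range of 8.73 to 9.50, and the difference was -2.70. Dnaja4, another J-domain protein, was at 4.65, 4.57 and 4.76 after Lipofectamine, against 7.64, 6.86 and 7.22 after heat shock, with all 3 of its probesets lower after Lipofectamine. Bag3, the co-chaperone of chaperone-assisted autophagy, was at 9.51, 9.79 and 9.20 after Lipofectamine, against 11.21, 11.03 and 11.60 after heat shock. Both groups of Bag3 samples exceeded the control range of 8.23 to 8.98, and the difference between them was -1.78 (SE 0.16). Smaller gaps in the same direction were found for Cryab, the lens and muscle small heat shock protein (-1.58 and -1.28), and Dnajb4 (-1.54 and -0.93). Cryab did not pass at its dimmest probeset (-0.15). Hsph1, the HSP110 exchange factor of HSP70, followed (-1.37 and -0.99). So did Hspa4l (-0.92, and -0.47 that was not kept) and the mitochondrial chaperonin partner Hspe1 (-0.78, and -0.49 that was not kept). Hspa4, of the HSP110 branch, was lower after Lipofectamine at 2 dimmer probesets (-0.86, kept, and -0.46, not kept) and did not pass at its brightest (0.15). The plot of heat shock genes by sample shows that, at the probesets drawn, Lipofectamine values of Hspb1, Hspa1b, Bag3 and Hsph1 sat between the control and heat shock values, whereas those of Hspa1a, Dnaja4 and Cryab sat at the control level.

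**Figure D2:**
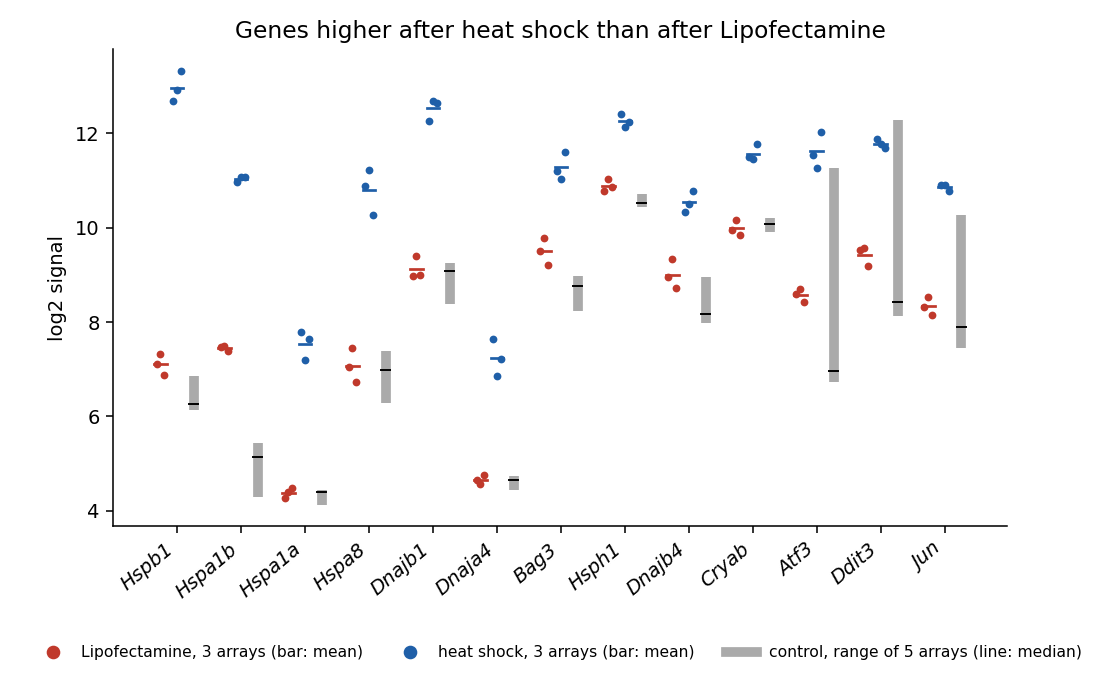
Levels of 13 genes that were higher after heat shock (y axis: log2 signal of 1 probeset a gene; red points: 3 Lipofectamine samples; blue points: 3 heat shock samples; short bars: group means; grey bars: range of the 5 control samples with their median). Hspb1 lies near 7 after Lipofectamine and near 13 after heat shock. The control bars of Atf3, Ddit3 and Jun span several log2 units, with control samples 1 and 3 at their upper ends. Hspa8 is drawn at its dimmest probeset, and its brighter probesets did not pass.

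By family, 4 of 7 measured small heat shock protein genes, 4 of 12 HSP70 and HSP110 genes and 3 of 13 cytosolic DnaJ genes were higher after heat shock. The calls of all 4 HSP70 and HSP110 genes and all 3 DnaJ genes were kept, as were 2 of the 4 small heat shock proteins (Hspb1 and Cryab). None of these 3 families had a gene higher after Lipofectamine except the DnaJ gene Dnaja2 (0.55, not kept). The BAG family was divided. Bag3 was higher after heat shock, while Bag2 (0.41), Bag4 (0.43) and Bag5 (0.62), which act on HSP70 as well, were higher after Lipofectamine, of which only Bag5 was kept. With array medians made equal, 1 of the 6 BAG genes passed as higher after Lipofectamine. In the HSP90 machinery 1 of 12 genes passed (Cacybp, -0.44), and none of the 13 TRiC chaperonin genes and none of the 3 heat shock factor genes passed, with differences of -0.26 to 0.23 and -0.26 to -0.07.

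The promoters of 3 of these heat shock genes are shown because the heat shock element is the sequence that HSF1 reads. Sequences are from RefSeq, build GRCm38.p6, and give the 250 bases before the start site on the strand of the gene. Capitals mark pairs of inverted units, GAANNTTC or TTCNNGAA. Only windows that hold such a pair were shown.
Hspb1, chr5:135887669-135887918, plus strand: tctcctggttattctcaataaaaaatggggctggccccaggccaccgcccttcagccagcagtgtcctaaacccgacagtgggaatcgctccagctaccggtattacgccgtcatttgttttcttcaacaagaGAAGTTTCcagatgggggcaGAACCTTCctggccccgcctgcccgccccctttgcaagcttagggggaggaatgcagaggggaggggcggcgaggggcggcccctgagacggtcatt
Hspa1b, chr17:34959239-34959488, minus strand: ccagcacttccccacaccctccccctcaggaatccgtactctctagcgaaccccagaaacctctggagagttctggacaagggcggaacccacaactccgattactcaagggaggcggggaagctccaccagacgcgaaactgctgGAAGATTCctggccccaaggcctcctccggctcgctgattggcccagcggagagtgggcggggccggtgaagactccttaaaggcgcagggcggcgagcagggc
Hspe1, chr1:55087898-55088147, plus strand: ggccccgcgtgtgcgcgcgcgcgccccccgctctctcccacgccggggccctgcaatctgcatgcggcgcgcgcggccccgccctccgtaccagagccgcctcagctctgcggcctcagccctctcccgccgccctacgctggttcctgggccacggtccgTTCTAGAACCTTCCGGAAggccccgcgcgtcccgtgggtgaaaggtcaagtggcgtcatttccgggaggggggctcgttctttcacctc
In Hspb1 the pairs start 117 and 97 bases before the start site, in Hspa1b a single pair starts 104 bases before it, and in Hspe1 3 overlapping pairs run from 89 bases before it. The looser pair was added after the values had been seen, and it also lies inside every stricter element of 3 units (GAANNTTCNNGAA or TTCNNGAANNTTC). Windows from 250 bases before to 50 bases after the start were searched on both strands. A pair was found in 9 of the 12 chaperone genes with a window among the 15 that were higher after heat shock. Dnajb1, among the largest gaps, had none, nor had Hspa4l and Cacybp. It was also found in 6 of 46 genes at least 2-fold higher after Lipofectamine (13.0%), in 9 of 20 genes at least 2-fold higher after heat shock (45.0%) and in 1469 of 9882 genes in all (14.9%). Over all genes that passed, the shares were 12.9% for those higher after Lipofectamine and 15.3% for those higher after heat shock. The 3-unit element was found in 2 of 665 genes higher after Lipofectamine (0.301%), in 6 of 346 higher after heat shock (1.73%, among them Hsph1 and Hspe1) and in 0.577% of all genes. These are descriptions of letters in a window and not of bound factor.

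Stress genes of the ATF and Jun families were also lower after Lipofectamine, and control samples 1 and 3 were high for them. Atf3, a stress-induced repressor of transcription, was at 8.60, 8.70 and 8.43 after Lipofectamine, against 11.54, 11.27 and 12.04 after heat shock. Its difference was -3.04 (SE 0.16), and its controls were at 11.27 and 11.22 in samples 1 and 3, against 6.72 to 6.97 in the other 3. The call did not pass with all control arrays in the fit (adjusted p = 0.122) and passed without samples 1 and 3 (adjusted p = 1.3e-09). Ddit3, the apoptosis-promoting factor CHOP, was at 9.52, 9.56 and 9.18 after Lipofectamine, against 11.88, 11.77 and 11.69 after heat shock. Controls 1 and 3 were at 12.28 and 12.19 and the others at 8.13 to 8.43, and the adjusted p was 0.186 with all control arrays in the fit and 1.33e-09 without samples 1 and 3. Jun, a subunit of the AP1 factor, had 8.32, 8.53 and 8.14 after Lipofectamine, against 10.91, 10.91 and 10.78 after heat shock, a difference of -2.54 that was kept at this probeset and not at the other (-2.08, adjusted p = 0.163 with all control arrays and 6.08e-08 without samples 1 and 3). Of 22 genes of the ATF4 stress response 2 were higher after Lipofectamine (Atf5 and Slc7a1) and 6 after heat shock (Ddit3, Cebpg, Ppp1r15a, Ddit4, Chac1 and Nupr1), and none of the 8 calls was kept with all 5 control samples. Without control samples 1 and 3 the kept calls were 1 on the Lipofectamine side and all 6 on the heat shock side. Among 27 genes of ER chaperones and the unfolded protein response 2 were higher after Lipofectamine, Hsp90b1 (0.51) and Sel1l (0.41), and 3 after heat shock, led by Creld2 (-0.85), again none of them kept, against 1 on each side without control samples 1 and 3. Gadd45g, a growth arrest and stress sensor, was at 7.28, 7.72 and 7.06 after Lipofectamine, against 8.10, 7.90 and 8.45 after heat shock. Both groups exceeded the control range of 5.32 to 5.80, and the difference of -0.79 (SE 0.17, adjusted p = 0.00432) was kept.

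Immediate early genes separated the groups in the other direction. Egr1, a zinc finger factor induced by ERK signalling, was at 10.25, 10.21 and 9.99 after Lipofectamine, against 7.63, 7.48 and 7.47 after heat shock. All heat shock samples lay only slightly above the control range of 6.93 to 7.32, and the difference was 2.63 (SE 0.12, adjusted p = 6.68e-10), or 6.17-fold. Fos, the partner of Jun in AP1, was at 10.76, 10.98 and 10.55 after Lipofectamine, against 8.51, 8.22 and 8.87 after heat shock. Here too both groups exceeded the controls (6.85 to 7.52), and the difference was 2.23 (SE 0.15). Within AP1 the groups were therefore told apart by opposite members, with Fos, Junb (1.09, not kept), Maff (0.74) and Mafg (0.49, not kept) higher after Lipofectamine and Jun, Jund (-0.64, not kept) and Atf3 higher after heat shock. Egr2 was low in both groups, at 5.32, 5.67 and 5.61 after Lipofectamine, against 5.12, 4.96 and 4.96 after heat shock, and only 1 of its 2 probesets passed (0.52, not kept). Ier3, an early gene of survival signalling, differed by 1.88, but its controls were at 11.02 and 11.30 in samples 1 and 3, against 8.30 to 8.50 in the others, and the call was not kept (adjusted p = 0.136 with all control arrays and 6.08e-08 without those 2). In the list of EGR, NAB and IER genes 4 of 11 were higher after Lipofectamine and none after heat shock. Only 1 of the 4 was kept, and the count was 2 at its lowest with 1 array left out and 2 with all control arrays in the fit.

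Early genes driven by CREB, the factor of cAMP and calcium signals, showed the same direction in 6 of 15 genes, with none higher after heat shock and 4 kept. Rgs2, which switches off G protein signals, was at 7.25, 8.14 and 7.47 after Lipofectamine, against 5.53, 5.54 and 5.27 after heat shock. Heat shock samples lay within the control range of 5.05 to 5.68, and the difference was 2.18 (SE 0.18). Nr4a1, an orphan nuclear receptor, was at 11.70, 11.79 and 11.70 after Lipofectamine, against 10.49, 10.27 and 10.64 after heat shock, a difference of 1.27. Its relative Nr4a2 (0.96) and Cited2 (1.27), which competes for the coactivator p300, were the other kept calls. Unlike Nr4a1, whose samples in both groups lay above the control range of 9.32 to 10.21, Cited2 stayed within the control range after Lipofectamine and fell below it after heat shock.

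Inhibitors that feed back on ERK followed. Dusp6, the ERK phosphatase, was at 10.52, 10.73 and 10.48 after Lipofectamine, against 9.09, 9.05 and 9.97 after heat shock. The third heat shock sample was much closer to the Lipofectamine samples than the other heat shock samples were, and the difference of 1.20 (SE 0.19, adjusted p = 0.000465) was kept. Spry2 (1.13), Spred2 (1.20) and Spred1 (0.69), which hold back the Ras pathway, were also higher after Lipofectamine and kept. Of 15 genes in the list 5 were higher after Lipofectamine and 1, Dusp8 (-0.76, not kept), after heat shock. Tle3, a co-repressor of the Groucho family, was higher after Lipofectamine at all 3 probesets (0.94, 0.75 and 0.44), of which the first and second were kept.

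Targets of NF-kB, the inflammatory factor, were higher after Lipofectamine in 6 of 25 genes and in none after heat shock, and 5 of the 6 calls were kept. Cxcl1, a neutrophil-attracting chemokine, was at 9.17, 9.02 and 8.48 after Lipofectamine, against 6.77, 6.86 and 7.14 after heat shock. No Lipofectamine sample reached down to the control range of 5.47 to 7.79, in which all heat shock samples lay. The difference was 1.97 (SE 0.16, adjusted p = 1.15e-06), or 3.91-fold. Csf1, the growth factor of macrophages, differed by 1.09, the inhibitors Nfkbie and Nfkbia by 0.94 and 0.61, and the cytokine Lif by 0.69. The ID proteins, which hold back differentiation by pairing with helix-loop-helix factors, stood out among genes of BMP signalling. Id1 was at 9.54, 9.88 and 9.59 after Lipofectamine, against 7.56, 7.60 and 7.99 after heat shock, and its controls ranged from 8.02 to 9.20. Lipofectamine samples thus lay above and heat shock samples below the controls, with a difference of 1.96 (SE 0.14). Id3 (1.84) fell below its control range after heat shock as well and stayed within it after Lipofectamine, and Id2 differed by 0.98 and 1.05 at 2 probesets that were not kept and by 1.64 at a dimmer one that was.

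**Figure D3:**
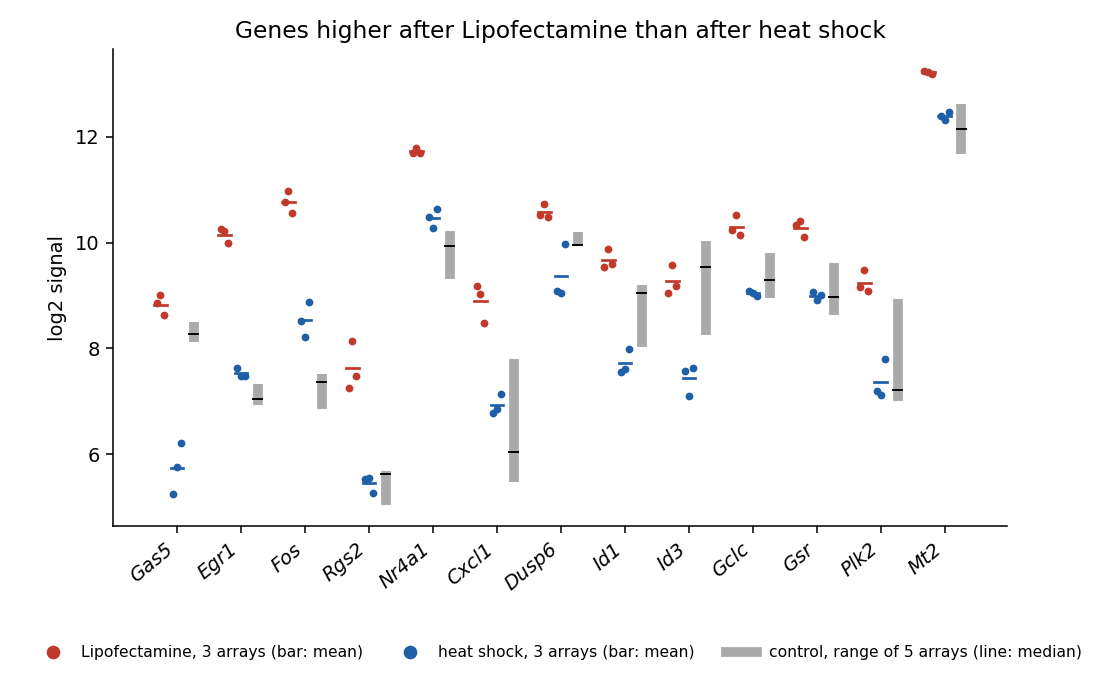
Levels of 13 genes that were higher after Lipofectamine (y axis: log2 signal of 1 probeset a gene; red points: 3 Lipofectamine samples; blue points: 3 heat shock samples; short bars: group means; grey bars: range of the 5 control samples with their median). Egr1, Fos and Rgs2 lie above the controls after Lipofectamine, whereas Gas5, Id1 and Id3 lie below the controls after heat shock. Gas5 is drawn at a dim probeset, and its probeset with the highest signal did not pass.

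Antioxidant genes of NRF2 gave the highest share among the longer lists, with 11 of 18 genes higher after Lipofectamine, none higher after heat shock and a list median of 0.54, against -0.07 over all genes. Gsr, which regenerates glutathione, was at 10.33, 10.40 and 10.10 after Lipofectamine, against 9.06, 8.92 and 9.01 after heat shock. Gclc, the catalytic subunit of the first enzyme of glutathione synthesis, was at 10.23, 10.52 and 10.14 after Lipofectamine, against 9.09, 9.04 and 8.99 after heat shock. In both genes the Lipofectamine samples lay above the controls and the heat shock samples among them, and the differences were 1.28 and 1.26 (SE 0.12 each). Nfe2l2, which encodes NRF2, was at 10.54, 10.57 and 10.32 after Lipofectamine, against 9.56, 9.34 and 9.70 after heat shock. Its controls ranged from 9.70 to 10.39. Lipofectamine sample 3 lay within that range, and the heat shock samples lay near or below its lower end. Me1, the malic enzyme that makes NADPH, differed by 0.58. These 4 calls were kept. The other 7, Srxn1 (0.95), Gclm (0.88), the cystine carrier Slc7a11 (0.73), Nqo1, Gstm1, Txnrd1 and Sqstm1, were not kept at the brightest probeset, while 2 dimmer probesets of Txnrd1 were (1.83 and 1.35). For Gclm the controls were at 11.09 and 11.10 in samples 1 and 3, against 8.81 to 9.23 in the others. With all control arrays in the fit 4 of the 18 genes passed, and without control samples 1 and 3 12 passed and 8 calls were kept. The metallothioneins, small proteins that bind zinc and copper, were also higher after Lipofectamine. Mt2 was at 13.24, 13.23 and 13.19 after Lipofectamine, against 12.40, 12.31 and 12.46 after heat shock, and Mt1 differed by 0.53 at its brighter probeset and by -0.49 at its dimmer one, which did not pass (adjusted p = 0.0765). The zinc exporter Slc30a1 differed by 0.60, while Mtf1, the factor that senses zinc, was lower after Lipofectamine (-0.48, not kept).

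Targets of p53, the DNA damage factor, were higher after Lipofectamine in 9 of 18 genes and in none after heat shock. Plk2, a stress-induced kinase, was at 9.15, 9.48 and 9.09 after Lipofectamine, against 7.19, 7.12 and 7.80 after heat shock, a difference of 1.87 (SE 0.16). Ccng1 (0.81) was the other kept call, whereas Trp53inp1 (1.19), Bbc3 (0.57), the cell cycle inhibitor Cdkn1a (0.48) and Mdm2 (0.41) were not. With all control arrays in the fit 3 of the 18 genes passed, against 9 without control samples 1 and 3, and the lowest count with 1 array left out was also 3. Genes of double-strand break repair lay on the other side, with none of 22 higher after Lipofectamine and 5 higher after heat shock (Rad50, Rad51c, Brca2, Prkdc and Rad51d, -0.67 to -0.41). Of these only Rad50, a subunit of the complex that senses broken ends, was kept. Lipofectamine samples lay below the control range in 12 of the 22 repair genes. Heat shock samples lay below it in 5 and above it in none. Over all probesets the shares below it were 6.72% after Lipofectamine and 10.2% after heat shock. Among DNA replication genes 1 of 42 was higher after Lipofectamine, Rrm1 (0.85), and 4 were higher after heat shock, with Orc5 at -0.64. No call was kept. Of the 42, Lipofectamine samples lay below the control range in 15 and heat shock samples in 10, with none above it after heat shock.

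Splicing factors showed 12 of 44 genes higher after Lipofectamine and 2 higher after heat shock. Srsf10 (0.92), Srsf5 (0.74) and the helicase Ddx5 (0.73) were the kept calls on the Lipofectamine side, and all 3 lay below the control range after heat shock. The 2 on the heat shock side were CLK kinases, which phosphorylate SR splicing factors. Clk4 was at 7.51, 7.71 and 7.24 after Lipofectamine, against 8.62, 8.76 and 8.88 after heat shock. Its difference of -1.27 (SE 0.13) was kept, with an adjusted p of 0.035 with all control arrays in the fit. Control samples 1 and 3 of Clk4 were at 8.72 and 8.78, against 7.43 to 7.63 in the others. Clk1 differed by -0.68 (not kept). Papola, the poly(A) polymerase, was 1.25 higher after Lipofectamine. Leaving out 1 array moved the number of splicing genes higher after Lipofectamine between 4 and 16.

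Lipid genes were examined because liposomes carry lipid into the membrane. In sterol and fatty acid synthesis 7 of 25 genes were higher after Lipofectamine, among them Msmo1 (0.86), Hmgcs1 (0.63) and Idi1 (0.58), and 1, Mvk (-0.37), after heat shock. Only Msmo1 was kept. With all control arrays in the fit 2 of the 25 passed as higher after Lipofectamine, against 8 without control samples 1 and 3. In phospholipid and sphingolipid synthesis 5 of 21 were higher after Lipofectamine and none after heat shock, led by the sphingomyelin synthase Sgms1 (0.96). Sgms1 was the only one of the 5 kept, and leaving out 1 array moved the count between 2 and 7. Of 32 genes of endocytosis and endosomal sorting only Eea1 (0.97) and Stam2 (0.79) passed, both kept and both below the control range after heat shock, and of 26 lysosomal genes only Atp6v1h (0.36, not kept) passed. Cytosolic ribosomal proteins (34 genes) did not pass in either direction, with differences of -0.33 to 0.16, and oxidative phosphorylation had 2 of 39 genes higher after heat shock.

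**Figure D4:**
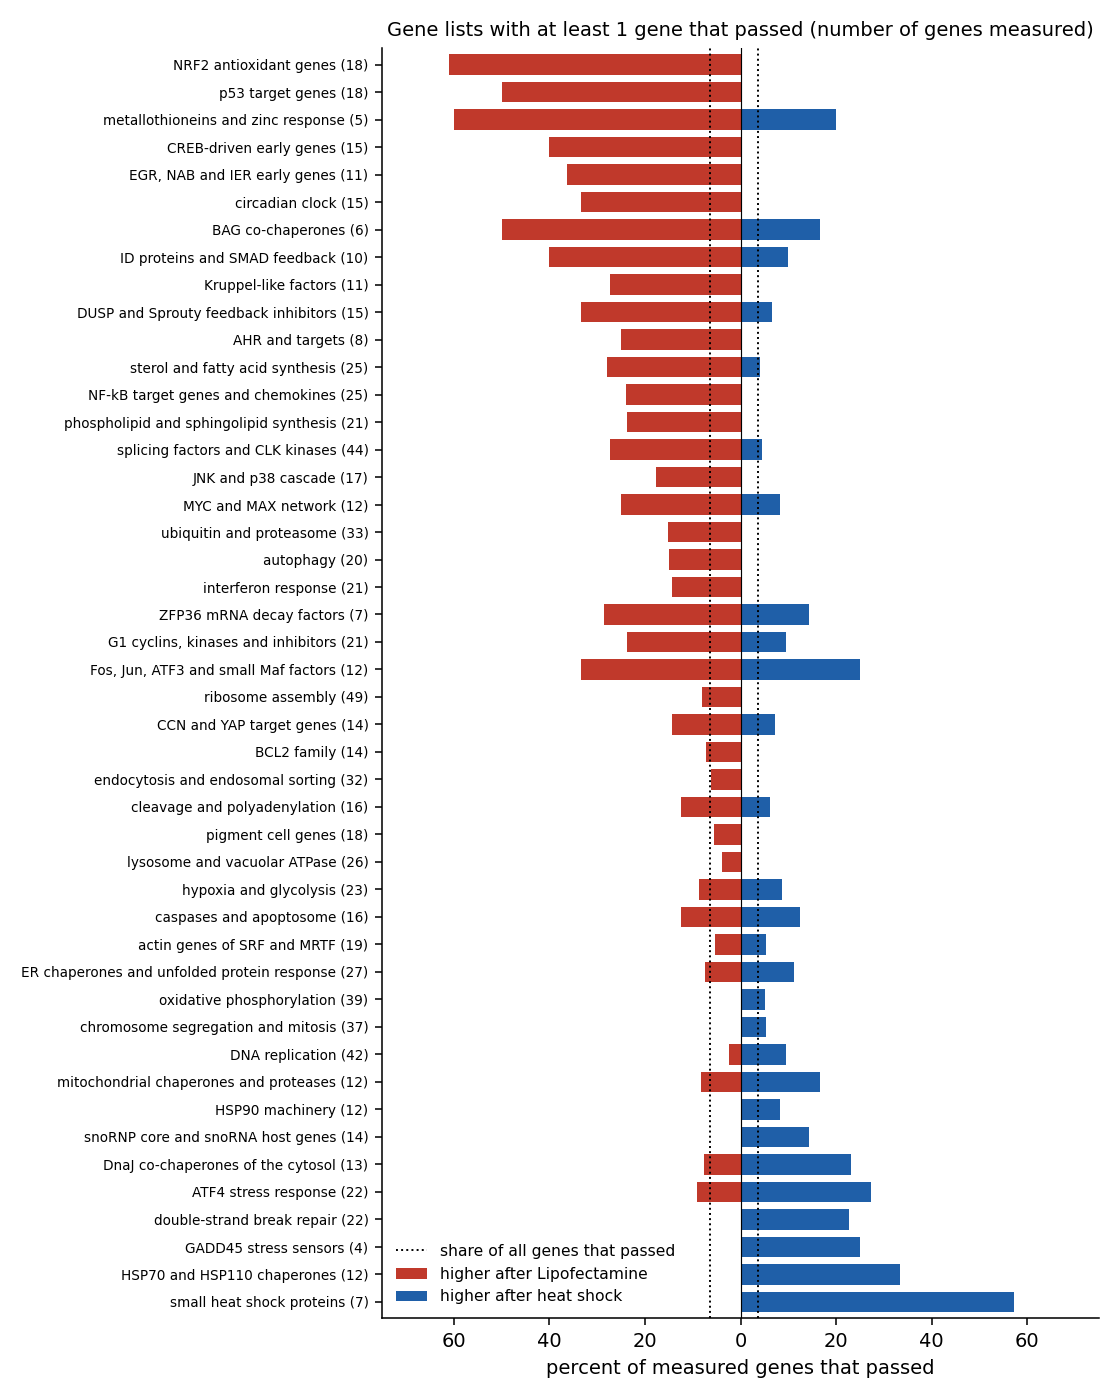
Share of measured genes that passed in each gene list with at least 1 such gene (x axis: percent of the genes measured, to the left for higher after Lipofectamine and to the right for higher after heat shock; the number of genes measured stands in brackets). Dotted lines mark the shares over all genes, 6.37% and 3.57%, and NRF2 antioxidant genes stand at one end and small heat shock proteins at the other.

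Pigment cell genes, the identity of a melanoma, were nearly alike in both groups, with 1 of 18 measured genes passing and levels of up to 13.17 after Lipofectamine and 13.09 after heat shock. None of 10 epithelial, 10 fibroblast, 10 macrophage, 8 endothelial and 7 T cell markers passed, and their differences ranged from -0.34 to 0.08. That gene was Sox10, a factor of melanocyte identity, at 0.50 in its brightest probeset (not kept), 0.60 in another (not kept) and 1.59 in the dimmest (kept). A difference in bulk RNA cannot separate fewer cells expressing a gene from less RNA in each cell.

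Placing the calls against the control samples showed on which side each group lay. All 3 arrays lay above the control range for 3.69% of all probesets after Lipofectamine and for 7.58% after heat shock, and below it for 6.72% after Lipofectamine and for 10.2% after heat shock. Of the 2043 probesets higher after Lipofectamine, Lipofectamine samples lay above the control range in 457 (22.4%) and heat shock samples below it in 840 (41.1%). Of the 857 probesets higher after heat shock, Lipofectamine samples lay below the control range in 297 (34.7%) and heat shock samples above it in 233 (27.2%). Among differences of at least 2-fold the picture was sharper on the heat shock side, where 7 of 41 probesets were below the controls after Lipofectamine and 30 were above them after heat shock. On the Lipofectamine side 89 of 224 such probesets were above the controls after Lipofectamine, and 106 were below them after heat shock. Since the sides follow in part from the direction of the call, these shares are descriptions.

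Gas5, a spliced non-coding RNA that hosts small nucleolar RNAs, held the largest difference on the Lipofectamine side, with heat shock samples below the controls. One probeset read 8.85, 9.01 and 8.62 after Lipofectamine, against 5.24, 5.76 and 6.21 after heat shock, with controls at 8.12 to 8.49. A second read 8.70, 9.04 and 8.77 after Lipofectamine, against 6.21, 6.46 and 6.31 after heat shock. Their differences were 3.09 (SE 0.19) and 2.51 (SE 0.12), both kept. The other 2 probesets of Gas5, which were brighter, did not differ beyond their spread (-0.01 and 0.03, adjusted p = 0.976 and 0.908). Hspa8, the constitutive HSP70, gave the mirror image. Its dimmest probeset was at 7.04, 7.45 and 6.73 after Lipofectamine, against 10.88, 11.22 and 10.27 after heat shock, a difference of -3.71 (SE 0.20). The brightest Hspa8 probeset was at 13.15, 12.94 and 13.04 after Lipofectamine, against 12.92, 13.06 and 13.18 after heat shock, and all 3 brighter probesets differed by -0.06 to 0.09. The probesets of Gas5, like those of Hspa8, thus did not give one common difference.

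The promoter of Gas5 is shown beside that result because a cAMP element, TGACGTCA, in capitals, starts 46 bases before one of its start sites.
Gas5, chr1:161034916-161035165, plus strand: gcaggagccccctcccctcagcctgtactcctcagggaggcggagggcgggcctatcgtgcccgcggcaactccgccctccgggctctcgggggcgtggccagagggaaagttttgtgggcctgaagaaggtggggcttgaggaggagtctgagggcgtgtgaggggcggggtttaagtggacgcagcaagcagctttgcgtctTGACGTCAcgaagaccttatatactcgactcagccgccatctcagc
TGACGTCA was found in 25 of 665 genes higher after Lipofectamine (3.76%), in 16 of 346 higher after heat shock (4.62%) and in 296 of 9882 genes in all (3.00%).

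Some of the largest differences came from genes whose probesets disagreed. Of the 30 genes of largest difference 17 had 2 or more probesets, and in 9 of them at least 1 probeset did not pass. Each of the 30 was taken at its probeset of largest difference. Over all genes with 2 or more probesets, 1499 had a call, and in only 152 were all probesets called the same way. Having a probeset that did not pass was thus not particular to the largest differences. A probeset can miss the threshold without a wide gap, so this count does not speak to the size of disagreement. Scd2, a fatty acid desaturase, differed by 2.19, 1.03 and 0.26 at its 3 probesets, Txnrd1, the thioredoxin reductase, by 1.83, 1.35 (both kept) and 0.52, and Ywhag, a phosphoserine-binding adaptor, by 2.13, 0.69 and 0.22. In each of these 3 genes the brightest probeset differed least. The transferrin receptor Tfrc behaved alike, with 1.59, 1.13 and -0.00, although neither call was kept. Norad, a long non-coding RNA that binds Pumilio proteins, differed by 1.90 at 1 of its 3 probesets and by 0.14 and -0.01 at the others. Rsrp1, an arginine and serine rich protein, was lower after Lipofectamine at 1 of 3 probesets (-1.45). Of 4956 genes with 2 or more probesets, 157 (3.17%) held a gap of 1 or more on the log2 scale between their lowest and highest difference. The median gap was 0.24. The widest gaps, 3.8 in Hspa8 and 3.1 in Gas5, were in genes of the 30, and the choice of probeset favours such genes.

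Calls in opposite directions were found in 41 of the 443 genes with 2 or more calls. In most of these genes the call of at least 1 direction was not kept. Dicer1, the nuclease that makes miRNAs, was at 7.29, 7.27 and 7.46 after Lipofectamine, against 8.22, 7.86 and 7.90 after heat shock at one probeset, and at 8.89, 9.21 and 8.76 after Lipofectamine, against 8.29, 7.91 and 7.85 after heat shock at the other. Both calls were kept (-0.65 and 0.93). Sec61a1, the channel of the ER membrane, passed at 3 of 6 probesets, with -0.64, 0.97 and 1.21, all kept. Hif1a, the oxygen-regulated factor, gave -0.47 and 1.35, and Fem1b, a substrate receptor of an ubiquitin ligase, gave -0.41 and 1.68. In the last 2 genes only the positive call was kept. The signal of the 3' against the 5' control probesets, a measure of RNA and cDNA length, moved with the groups. For Gapdh the 3' minus 5' difference was -0.10 to -0.06 after Lipofectamine and 0.01 to 0.13 after heat shock, and for Actb it was 0.02 to 0.11 after Lipofectamine and 0.12 to 0.39 after heat shock. Its part in the differences between probesets was not tested.

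**Figure D5:**
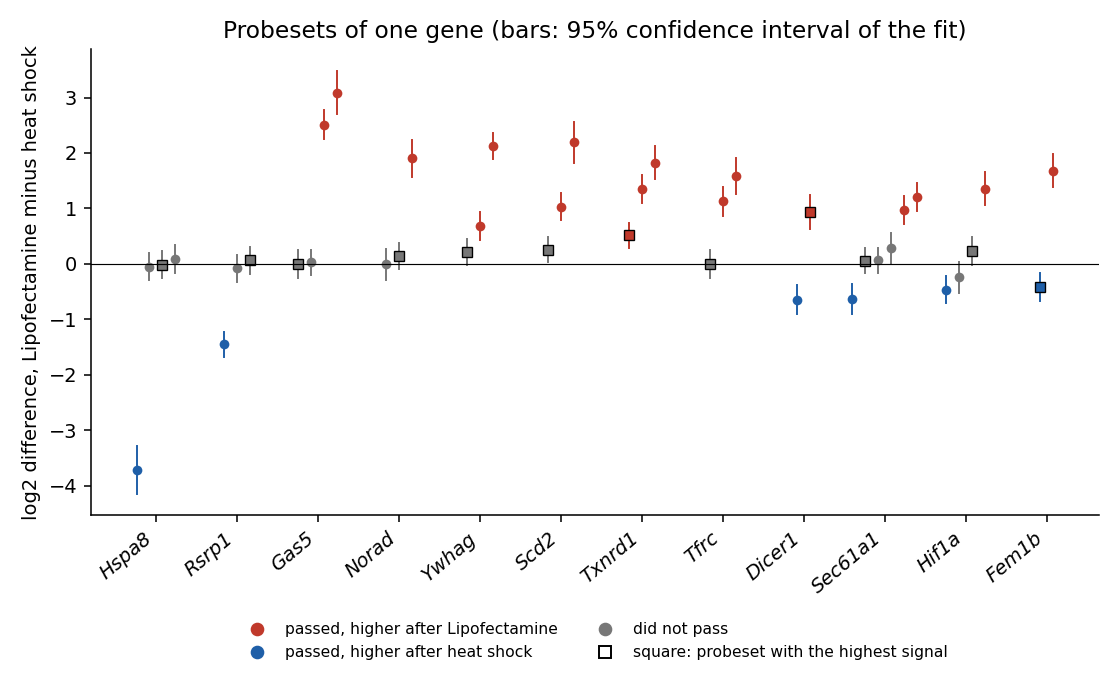
Difference at every probeset of 12 genes whose probesets disagree (y axis: log2 difference, Lipofectamine minus heat shock; each symbol is 1 probeset; vertical bars: 95% confidence interval of the fit; squares: probeset with the highest signal; grey: did not pass). In Hspa8, Gas5 and Scd2 the brightest probeset lies near 0 while another differs by -3.71, 3.09 and 2.19.

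Genes higher after Lipofectamine had a median length of 25.2 kb and genes higher after heat shock one of 18.6 kb, against 20.1 kb over all genes. Among differences of at least 2-fold the medians were 17.2 kb for 57 genes higher after Lipofectamine and 10.4 kb for 22 genes higher after heat shock. The GC box GGGCGG was found in 74.7% of promoters of genes higher after Lipofectamine, in 63.6% of those higher after heat shock and in 61.1% of all. Among differences of at least 2-fold the order was the opposite, with 71.7% of those higher after Lipofectamine and 85.0% of those higher after heat shock. The electrophile element TGACNNNGC was found in 21.1%, 17.1% and 16.3% of the same sets.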

How the data were processed

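Total RNA of B16-F10 cells was hybridised by the authors to Affymetrix mouse expression arrays, 1 array a sample. The deposited log2 values were made by the authors with GCOS 1.2 and RMA, which corrects background, normalizes the arrays to one distribution and summarises the probes of a probeset. The RMA version and the arrays that were normalized together are not given in the sources used here. RMA pulls small differences of dim probesets together, and the number of arrays limits the precision. The 64 Affymetrix control probesets were left out of the tests.

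Lipofectamine minus heat shock was fitted on the 6 arrays with limma 3.58.1 in R 4.3.3 (lmFit and eBayes, two-sided), and p-values were adjusted by Benjamini-Hochberg over 22626 probesets, with a threshold of 0.05. The p-values measure the spread between these samples. An exact permutation test of 3 against 3 samples cannot go below 0.1. The fit was tested on simulated data. Symbols came from the platform annotation, where 20380 probesets have 1 symbol, 691 several and 1555 none, and only the first kind was named. Lists were counted at the probeset with the highest mean signal of each gene.

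The named genes are the 15 largest differences in each direction, 1 probeset a gene, up to 6 members of each list that passed, by smallest p, and the genes the paper names in its array and promoter results. A few others, such as the probesets in opposite directions, were chosen after their values were seen. The members and lists were chosen with earlier results of these data known. Promoter windows came from RefSeq (GRCm38.p6), and the heat shock element of 2 units and the fit without control samples 1 and 3 were added after seeing the data.

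Samples of the same number did not deviate together (r = -0.149, -0.151 and -0.094). With 3 samples a group this cannot exclude pairing, and the labels do not say whether the samples were paired. The 3 benzyl alcohol samples were not compared. Alternatives covered the arrays in the fit, the threshold, variance moderation and trend, array weights, filters, scaling, a minimum fold, the mean of probesets, a replicate block and each array left out.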

Additional observations from a re-analysis of the deposited data

Results flagged for a closer look

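In 3 of 54 groups of 5 control samples examined for named genes, 1 sample stood apart from the others by more than the 95% critical value of Dixon's test (a gap of 0.71 of the whole range), and chance alone flags about 1 in 20 such groups. For Hspa1b the control samples were at 5.19, 5.44, 4.30, 5.14 and 5.13, and the gap of the low one took 0.728 of the range. For Rgs2 they were at 5.53, 5.68, 5.05, 5.62 and 5.62, with a gap of 0.762. In both genes control sample 3 was the low one, and it set the lower end of the control range given beside them. For Egr2 the controls were at 4.81, 5.00, 4.81, 4.75 and 4.75, with control sample 2 the high one and a gap of 0.760. A pair of samples that stand apart together escapes this test. Control samples 1 and 3 did so for Atf3, Ddit3, Ier3, Jun, Junb and Plk2, among others, and were the high ones in each of these 6. The control samples did not enter the differences between Lipofectamine and heat shock.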

How the results depend on the processing

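The counts of 2900 probesets, 2043 higher after Lipofectamine and 857 higher after heat shock, depended on the fit. They were 1294 (999 and 295) with the control arrays in the fit and 1293 (982 and 311) with all 14 arrays. With control arrays 2, 4 and 5 only, added after seeing the data, they were 3080 (2098 and 982). They were 751 (580 and 171) at the threshold of the methods and 318 (239 and 79) without moderation of the variance. With array weights they were 9753 (4497 and 5256), where Lipofectamine sample 1 weighed 7.39 and samples 2 and 3 weighed 0.322 and 0.286. They were 1165 (967 and 198) at a difference of at least 1.5-fold and 1151 (797 and 354) over the mean of the probesets of each gene, which tests fewer features. The share of calls higher after Lipofectamine, 70.4%, was 46.1% with array weights and 58.5% after a further quantile normalization, which gave 1538 probesets higher after heat shock. With 1 array left out the counts ranged from 1562 to 5707 in all, from 1227 to 3121 higher after Lipofectamine and from 330 to 2586 higher after heat shock. With the replicate block, although the labels do not say that the numbers pair the samples, 3132 probesets passed (2150 and 982). The cause of these shifts was not tested.

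Of the 202 named probesets that passed, 122 passed with each array left out and 29 under every alternative. Averaged over their probesets, Hspa4 was lower after Lipofectamine (-0.39, adjusted p = 0.0491), opposite to its brightest probeset, and Cflar differed by 0.0876 (adjusted p = 0.608), against -0.59 at the probeset named.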

Other observations

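Other gene groups held a few calls each. Myc, a transcription factor of cell growth, was at 9.11, 9.06 and 8.84 after Lipofectamine, against 8.00, 8.05 and 8.47 after heat shock. Both groups lay below the control range of 9.47 to 9.73, and the difference of 0.83 was kept. Of the circadian clock 5 of 15 genes were higher after Lipofectamine and none after heat shock, with no call kept, and the count was 2 at its lowest with 1 array left out. Among the ZFP36 proteins, which bring mRNAs to decay, Zfp36l2 (0.92) was higher after Lipofectamine and Zfp36l1 (-0.85) was lower, both kept, so that close relatives lay on opposite sides.

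In cell death genes, Apaf1, the scaffold of the apoptosome (0.83), and Xiap, a caspase inhibitor (0.57), were higher after Lipofectamine, both kept. Cflar, which blocks caspase-8 at death receptors, had no common direction over its 4 probesets, with -0.59 at the brightest (kept), 0.85 at another (not kept) and 0.11 and -0.02 at those that did not pass. Proteasome and ubiquitin genes were higher after Lipofectamine in 5 of 33 genes and in none after heat shock, of which only Psma7 (0.55) was kept. In hypoxia and glycolysis Hilpda, a lipid droplet protein (1.14, kept), was higher after Lipofectamine and P4ha1, a collagen prolyl hydroxylase (-0.69, kept), was lower.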
